A study of Drosophila melanogaster with 18 samples.

Results

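The comparison described here asks how the response of Drosophila S2 cells to the reducing agent DTT differed when IRE1 was the target of RNA interference (RNAi). It used 12 of the 18 arrays of the study, 3 in each of 4 groups, and took the effect of DTT on the arrays labelled IRE1 RNAi minus its effect in control cells. S2 cells are an established line of embryonic origin that resembles hemocytes, the blood cells of the fly. The control groups were mock treated without double-stranded RNA, either left without DTT or kept in 2 mM DTT for 7.4 hours. The IRE1 RNAi groups received about 15 µg/ml of double-stranded RNA against IRE1 in repeated rounds and were then left without DTT or given the same DTT treatment. The other 6 arrays, of cells given double-stranded RNA against XBP-1 with and without DTT, shared the fit and serve for comparison. Control cells received none, so a response to double-stranded RNA of any sequence would be part of each difference from control. Each array carries a letter, A, B or C, in its label. Whether a letter stands for a separate culture is not said, and the p-values therefore rest on a spread between arrays that may be technical.

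Secreted and membrane proteins fold in the endoplasmic reticulum (ER), where DTT breaks the disulphide bonds they need. IRE1 is a kinase and ribonuclease of the ER membrane that responds to unfolded proteins. It splices the mRNA of XBP-1, a transcription factor that activates genes of protein folding, translocation, transport and degradation. In Drosophila cells IRE1 is also known to promote the decay of mRNAs that encode secreted and membrane proteins during ER stress.

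Each array compared 16 µg of sample RNA, labelled with Cy5, with a common Cy3-labelled reference pool, to which embryos as well as treated and untreated S2 cells had contributed. A value below is the log2 ratio of sample to reference minus the median of its array, so 0 stands for the median probe. The base of the logarithm and the sample-over-reference direction are readings of the deposited values, and a natural logarithm was not excluded. The 12 arrays held 3755 to 6696 values each, and the sparsest was replicate A of IRE1 RNAi with DTT, with 48.3% of its probes empty. Of the 10 probes tested for genes of muscle, nerve and germ line that embryos in the reference could supply, 8 lay below the array median in control cells without DTT, down to -4.83 for the myosin gene Mlc2. The hemocyte markers tested were 7, and their median on an array ran from 0.05 to 0.43 in control cells without DTT and from -1.13 to -0.86 with DTT. The ranges were -0.14 to 0.43 and -0.79 to -0.33 on the arrays labelled IRE1 RNAi, while the median over the 7 markers' group means went from 0.24 to -0.76 in control cells and from 0.36 to -0.54 on the labelled arrays. NimC1, a receptor for bacteria, stood lowest without DTT (-1.49 in control), and the defining genes Hml, He and eater were not among the tested probes. The part of these markers in the results was not tested, and none of the foreign tissue probes passed between the arms.

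The probe of the RNAi target went against the label. Before centring, Ire1 read 2.06, 2.06 and 0.13 on the arrays labelled IRE1 RNAi without DTT and 0.80, 2.55 and 2.20 with DTT. Control cells read -0.69, -0.78 and -0.60 without DTT and 0.41, -0.58 and -0.39 with DTT. The probe was thus higher on every array labelled IRE1 RNAi than on all control arrays of the same DTT state. The labelled arrays should carry less IRE1 mRNA, so each direction below refers to the label and not to a measured loss of the mRNA. The DTT effect itself did not pass the test between the arms for Ire1 (difference 0.33 ± 0.56, adjusted p = 0.788). The Xbp1 probes, which do not tell spliced from unspliced mRNA as far as the files show, differed by 0.39 ± 0.26 (adjusted p = 0.436) and 0.06 ± 0.24 (adjusted p = 0.908). Standard errors, given after ±, came from limma, and groups had 3 arrays except where a missing value is stated.

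DTT affected many genes in both arms, and a smaller set differed between them. In limma, with a Benjamini-Hochberg adjusted p under 0.05, 1972 of 5594 probes (35.3%) changed with DTT in control cells, 994 up (17.8%) and 978 down (17.5%). On the arrays labelled IRE1 RNAi 1874 probes (33.5%) changed, 785 up (14%) and 1089 down (19.5%). The difference between these effects passed the threshold for 272 probes (4.86%). It was higher on the arrays labelled IRE1 RNAi for 125 probes of 125 genes (2.23%) and lower for 147 probes of 146 genes (2.63%), while the median over all probes was -0.08. The counts were smaller without certain arrays. They were 68 higher and 75 lower without replicate B of control with DTT, and 65 and 73 without replicate B of IRE1 RNAi with DTT. Lower calls also dropped to 87 without replicate A of control without DTT, 87 without replicate C of control with DTT and 94 without replicate A of IRE1 RNAi without DTT. Leaving out the sparse array gave 94 and 102. Without replicate B of IRE1 RNAi with DTT the DTT effect passed for 1222 probes in that arm. Only 3631 probes were tested in that fit, against 5594 with all arrays, so its counts are of fewer probes. Higher calls made up 46.0% of the called probes, and 19.6% when the values were not centred (30 higher and 123 lower), where the median of all probes was -0.43.

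Most of the higher probes were ones that fell with DTT in control cells. Over all probes 17.5% fell and 17.8% rose there. The difference subtracts the control effect, so picking its extremes favours such probes beforehand, and the split is description only. Of the 125, 85 (68%) fell in control cells, and of these 56 did not pass the test on the arrays labelled IRE1 RNAi, 26 fell there too and 3 rose. A further 28 (22.4%) did not pass in control cells, and 27 of them rose on the arrays labelled IRE1 RNAi. The remaining 12 rose in both arms. The median DTT effect of the 125 was -1.23 in control cells and 0.11 on the arrays labelled IRE1 RNAi. Of the 147 lower probes, 104 (70.7%) rose in control cells, and on the arrays labelled IRE1 RNAi 75 of these did not pass, 17 rose and 12 fell. Another 38 did not pass in control cells and fell under the IRE1 RNAi label, and 5 fell in both arms. Their median DTT effect was 0.98 in control cells and -0.28 on the arrays labelled IRE1 RNAi. A DTT effect that misses the threshold is not shown to be absent.

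**Figure D1:**
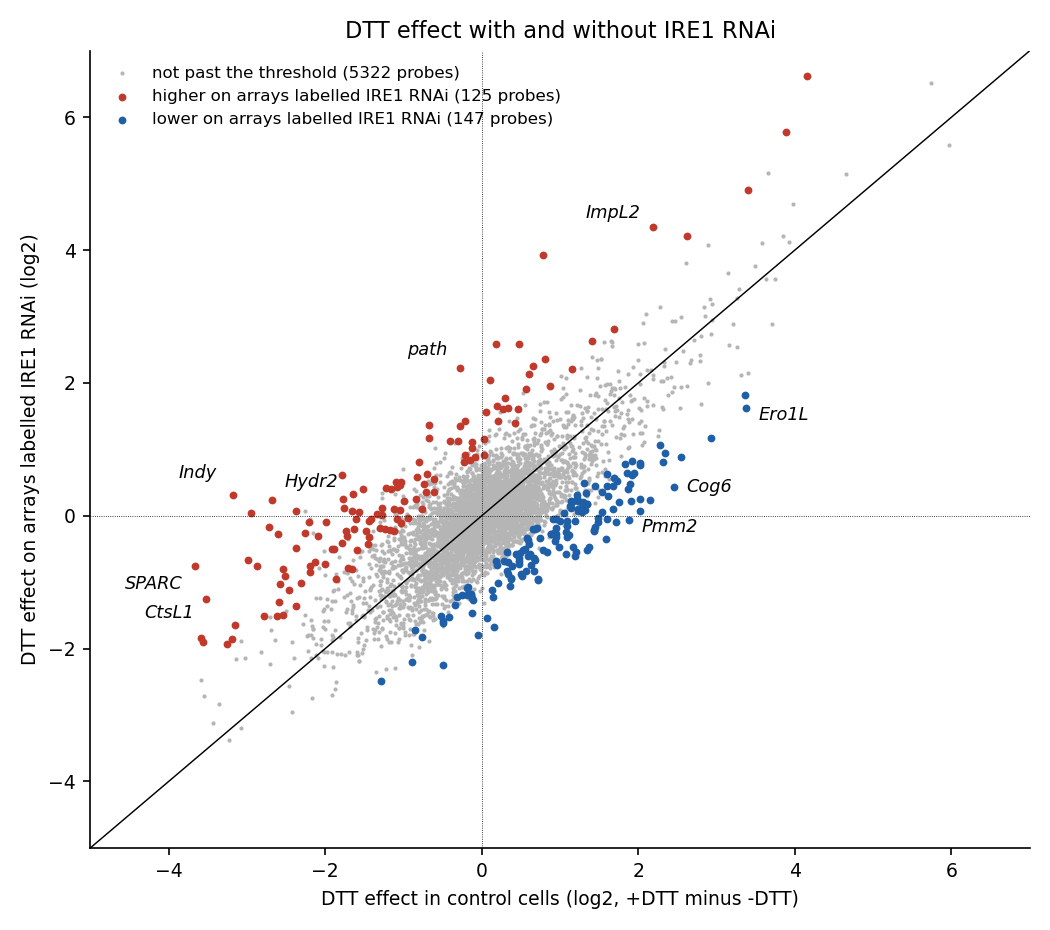
DTT effect of each tested probe in control cells (horizontal axis) and on the arrays labelled IRE1 RNAi (vertical axis), both as log2 of +DTT minus -DTT; the diagonal marks equal effects. The 125 higher probes (red) lie above the diagonal, most of them left of 0, and the 147 lower probes (blue) lie below it, most of them right of 0.

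Among genes of secreted and matrix proteins, 8 of 33 probes were higher and none lower, against 2.23% and 2.63% over all probes. Their median difference was 0.84. SPARC encodes a secreted glycoprotein that binds collagen in basement membranes. In control cells it stood at 1.37, 1.32 and 2.15 without DTT (letters A, B and C) and at -1.71, -2.37 and -2.06 with DTT. The arrays labelled IRE1 RNAi put it at 1.68, 1.68 and 2.40 without DTT and at 0.90, 1.17 and 1.43 with DTT. With DTT all 3 labelled arrays were therefore above all 3 control arrays, while without DTT the groups overlapped. Such separation, here and below, is description and no added support, as most genes were named for passing on these same arrays. SPARC fell 12.6-fold in control cells and 1.69-fold on the arrays labelled IRE1 RNAi, a difference of 2.91 ± 0.39 (adjusted p = 0.000391). As the array measures RNA of whole cultures, fewer cells that carry an mRNA and less of it per cell cannot be told apart, for this gene and those below.

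Further basement membrane genes passed the test with smaller differences. The collagen IV gene vkg changed by -3.25 in control cells and by -1.93 on the arrays labelled IRE1 RNAi, a difference of 1.32 ± 0.35 (adjusted p = 0.0364). The laminin genes LanB1 and LanB2 differed by 1.30 ± 0.32 and 1.34 ± 0.32, the latter without a value on the sparse array, and their change on the arrays labelled IRE1 RNAi was still -1.30 and -1.85. LanA, with a difference of 2.15 ± 0.62, just missed the threshold (adjusted p = 0.0504). A probe of trol, the perlecan gene, differed by 1.39 ± 0.38, and a second one changed by -1.30 in control cells and -0.10 on the labelled arrays without passing (adjusted p = 0.183). The calls of vkg, LanB1, LanB2 and trol were each lost when 1 array was left out, replicate B of control with DTT among them. That of vkg was lost without any of 6 arrays. That of trol was lost in 13 of 19 alternative fits, each with 1 array left out or other processing. Calls in this list numbered 5 without replicate B of control without DTT, 4 without replicate B of control with DTT, 5 without replicate A of IRE1 RNAi without DTT, 5 without replicate B of IRE1 RNAi with DTT and 13 without replicate B of IRE1 RNAi without DTT. They were 4 with quantile normalization and 3 without centring, and quantile normalization added 1 lower call.

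The imaginal disc growth factors, secreted relatives of chitinases, included Idgf1 and Idgf2 among the higher genes. Idgf2 read 2.24, 1.80 and 2.80 in control cells without DTT and -1.27, -1.53 and -1.04 with DTT. The arrays labelled IRE1 RNAi read 3.37, 1.52 and 2.62 without DTT and 1.06, -0.14 and 0.87 with DTT. DTT thus lowered Idgf2 in both arms, by 11.8-fold in control cells and 3.75-fold on the labelled arrays, and the difference was 1.65 ± 0.36 (adjusted p = 0.00999). Idgf1 changed by -2.54 and -0.80, a difference of 1.73 ± 0.37 (adjusted p = 0.00986). Without centring neither passed the threshold. Idgf3 and Idgf6, which changed by -3.55 and -3.59 in control cells, had differences of 0.84 ± 0.34 and 1.11 ± 0.40 that did not pass.

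ImpL2 was the called gene of this list that rose in both arms. It encodes a secreted protein that binds insulin-like peptides. Control cells read -0.74, -1.35 and -2.11 without DTT and 0.79, 0.62 and 0.96 with DTT. The arrays labelled IRE1 RNAi read -1.64, -0.88 and -1.70 without DTT and 3.20, 3.39 and 2.25 with DTT, all above the control arrays with DTT. ImpL2 rose 4.56-fold in control cells and 20.4-fold on the labelled arrays (difference 2.16 ± 0.40, adjusted p = 0.00426).

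Of 32 probes for membrane receptors and transporters, 9 were higher and none lower, against 2.23% and 2.63% over all probes. The 9 include the hydrolase gene Hydr2, and the list was drawn up with earlier results of these data known. Its median difference was 0.56. Indy, a plasma membrane carrier of citrate and other dicarboxylates, had the largest difference of all probes in the fit with values on 12 arrays. It read 0.92, 0.23 and 0.71 in control cells without DTT and -2.33, -2.68 and -2.66 with DTT. The arrays labelled IRE1 RNAi read 0.31, 1.04 and 0.63 without DTT and 0.53, 1.27 and 1.12 with DTT. The fall seen in the 3 control pairs was thus not seen in any of the labelled pairs. The fall was 9.04-fold in control cells, and the difference of 3.49 ± 0.35 (adjusted p = 6.64e-06) was 3.47, 3.14 and 3.86 in letters A, B and C.

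Hydr2, a hydrolase gene grouped here with the membrane proteins, and Tsp42Ee, which encodes a tetraspanin of cell membranes, followed the same course. Hydr2 read 1.02, 0.75 and 1.07 in control cells without DTT and -1.79, -1.88 and -1.53 with DTT, against 1.09, 0.70 and 1.07 and then 1.65, 1.00 and 0.93 on the arrays labelled IRE1 RNAi. With DTT the labelled arrays were all above the control arrays, and above 0, and the difference was 2.92 ± 0.29 (adjusted p = 6.64e-06). Tsp42Ee read 1.51, 0.89 and 1.39 and then -1.72, -2.22 and -1.11 in control cells, against 2.07, 1.01 and 1.47 and then 2.64, 0.91 and 1.13 on the labelled arrays. Its DTT effect was -2.95 in control cells and 0.04 on the labelled arrays, a difference of 2.99 ± 0.41 (adjusted p = 0.000395).

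Adhesion and scavenger receptors made up most of the other calls in the membrane list. The beta integrin gene mys changed by -1.76 in control cells and 0.12 on the arrays labelled IRE1 RNAi, a difference of 1.88 ± 0.30 (adjusted p = 0.00124). Dg, the dystroglycan gene, differed by 1.37 ± 0.36. The scavenger receptor genes crq and Sr-CI differed by 1.42 ± 0.32 (without a value on the sparse array) and 1.04 ± 0.28, and Pvr, the receptor for PDGF- and VEGF-related ligands, by 1.08 ± 0.27. Both probes of the phagocytic receptor gene drpr were tested and disagreed, with 1.61 ± 0.26 (adjusted p = 0.00124) for the first and 0.09 ± 0.28 for the second. The calls of Dg, crq, Sr-CI and Pvr were each lost without replicate B of control with DTT, which left 5 calls in the list, as did leaving out replicate B of IRE1 RNAi with DTT. Sr-CI lost its call without any of 9 arrays and Pvr without any of 6. Dg lost it in 12 of 19 alternative fits, each with 1 array left out or other processing. The list had 4 calls without centring. The 4 hemocyte markers that passed, of 7, against 2.23% over all probes, were vkg, crq, Pvr and Sr-CI, which the lists above also hold. Their number was 2 with quantile normalization and 0 without centring, and leaving out either replicate B with DTT, of control or IRE1 RNAi, gave 0. Leaving out replicate A of IRE1 RNAi without DTT left 1, and 5 other arrays left 2 each.

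**Figure D2:**
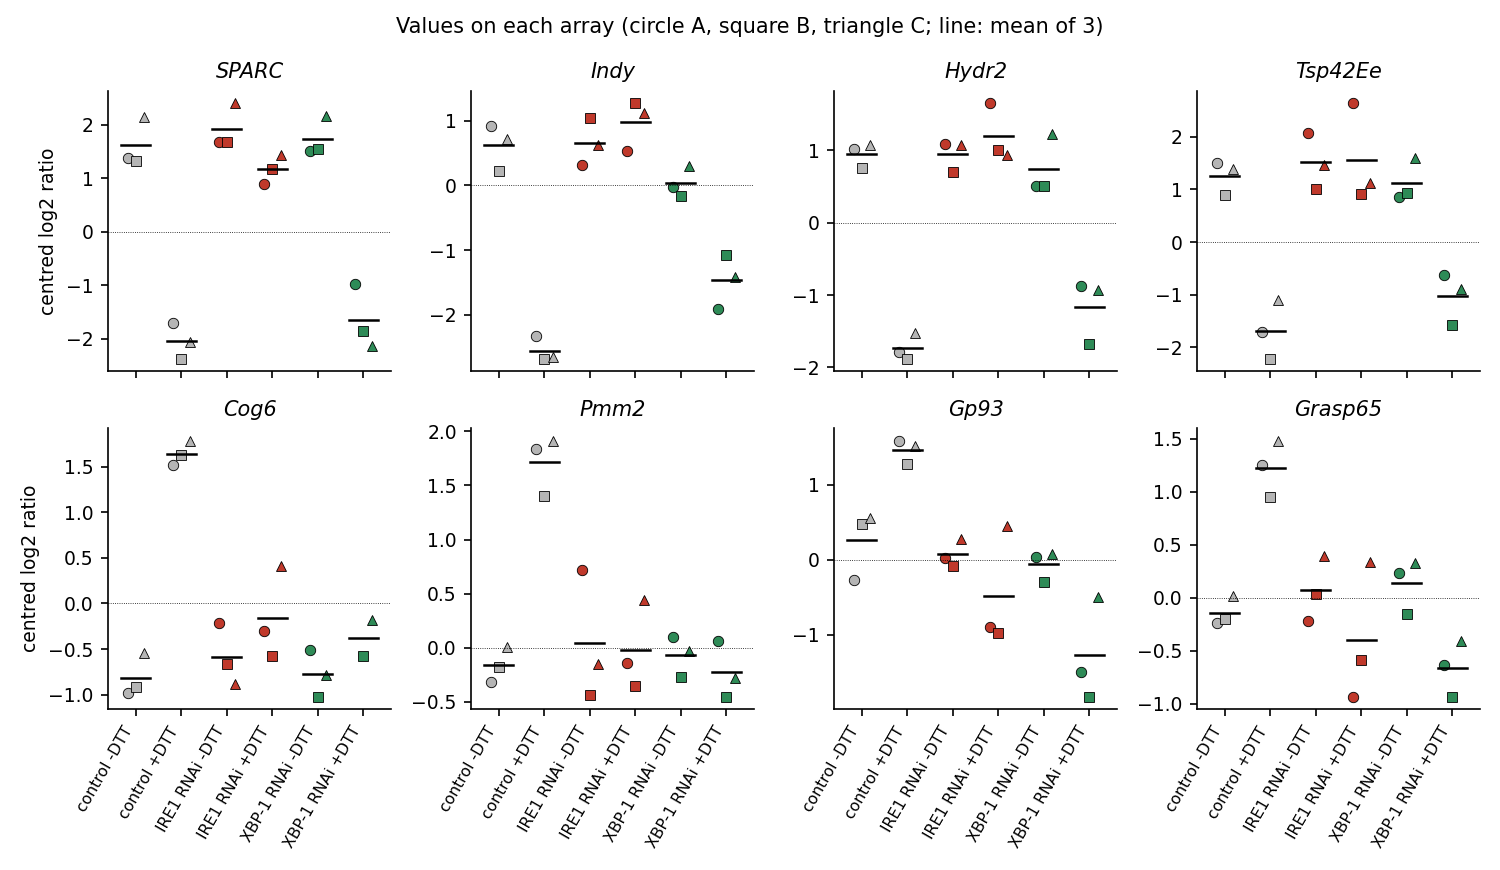
Centred log2 ratio of 8 genes on each of the 18 arrays, by group; symbols mark letters A (circle), B (square) and C (triangle), and horizontal lines are means of the available values. In the upper row the control arrays with DTT lie far below the arrays labelled IRE1 RNAi with DTT, and in the lower row they lie above them.

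Of 9 lysosomal probes, 8 fell with DTT in control cells and 6 on the arrays labelled IRE1 RNAi. Over all probes 17.5% and 19.5% fell. The difference passed for 2, both higher, against 2.23% over all probes, and its median was 0.55. CtsL1 encodes cathepsin L, a lysosomal cysteine protease. It read 1.44, 1.50 and 1.66 in control cells without DTT and -1.51, -2.36 and -2.10 with DTT, against 2.43, 1.39 and 2.27 and then 1.29, 0.46 and 0.58 on the labelled arrays. The fall was 11.5-fold in control cells and 2.38-fold on the labelled arrays, so the mRNA fell in both, and the difference was 2.27 ± 0.30 (adjusted p = 0.000391). Lamp1, which encodes a membrane protein of lysosomes, changed by -1.99 in control cells and -0.09 on the labelled arrays (1.89 ± 0.40, adjusted p = 0.00891). CtsB, another cathepsin gene, changed alike, by -2.39 and -2.14, with a difference of 0.25 ± 0.30.

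The other higher genes named by size encode both ER-targeted and cytosolic or nuclear proteins. The transmembrane semaphorin gene Sema1b differed by 2.12 ± 0.29, the leucine-rich repeat glycoprotein gene Gp150 by 1.98 ± 0.42 and Baldspot, a fatty acid elongase gene, by 2.11 ± 0.42. All 3 fell in control cells, with DTT effects of -2.21, -1.65 and -2.87. Sumo encodes the small ubiquitin-like modifier, which carries no signal for the ER. It read 1.18, 0.24 and 0.24 and then -1.50, -2.32 and -1.29 in control cells, against 1.05, 0.94 and 0.52 and then 0.57, 0.77 and 0.40 on the labelled arrays. Its difference was 2.00 ± 0.42 (adjusted p = 0.00911). CG6805 and CG14464, the latter matched through a synonym of its probe number, differed by 2.44 ± 0.23 and 2.55 ± 0.39. The acyltransferase gene Agpat2 was the only call among 20 lipid and sterol probes, against 2.23% higher and 2.63% lower over all probes. Its difference was 1.74 ± 0.45 (adjusted p = 0.0333). Agpat2 lacked a value on replicate A of control with DTT and lost its call without any of 5 arrays, the sparse array among them.

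A smaller group of higher genes rose on the arrays labelled IRE1 RNAi with little or no called change in control cells. The amino acid transporter gene path read 0.57, 0.15 and 0.65 in control cells without DTT and 0.52, 0.01 and 0.00 with DTT. On the labelled arrays it read -0.42, 0.81 and 0.32 without DTT and 2.70, 2.36 and 2.34 with DTT, well above every other group. It rose 4.69-fold there, and the difference was 2.51 ± 0.40 (adjusted p = 0.00124). NTPase, a nucleoside triphosphatase gene, read 2.85, 2.53 and 2.80 on the labelled arrays with DTT, while the control arrays with DTT read 0.52, 0.30 and -0.06. Its difference was 2.11 ± 0.29 (adjusted p = 0.000391). The tetraspanin gene Tsp42Ea rose from -0.58, -1.64 and -0.65 to 1.84, 0.78 and 0.65 on the labelled arrays, and control cells stayed between -1.72 and -0.99 on all 6 arrays (1.94 ± 0.35, adjusted p = 0.00308).

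Single genes of the glutathione and tRNA synthetase lists were higher too. Gclc, the catalytic subunit of the enzyme that starts glutathione synthesis, rose 1.76-fold in control cells and 5.11-fold on the arrays labelled IRE1 RNAi (1.54 ± 0.29, adjusted p = 0.00477). AsnRS, the asparaginyl-tRNA synthetase gene, changed by 0.27 and 1.61 (1.34 ± 0.31, adjusted p = 0.0147). Its call was lost without replicate B of control with DTT, with quantile normalization, without centring, without the letter as a block and with unmoderated variances. That of Gclc was lost without centring and without the block. Gclc and AsnRS were the only higher calls among 29 glutathione and thiol probes and 16 synthetases, where the share over all probes was 2.23%. Of these lists 20 and 13 probes rose with DTT in control cells and 17 and 13 on the labelled arrays. Over all probes 17.8% and 14% rose. In these lists the median differences were -0.16 and -0.11. GstO1, an omega glutathione transferase gene, was the lower call of the glutathione list, 3.45% of its probes against 2.63% over all probes. The difference of GstO1 was -1.32 ± 0.28 (adjusted p = 0.0103) without a value on the sparse array.

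**Figure D3:**
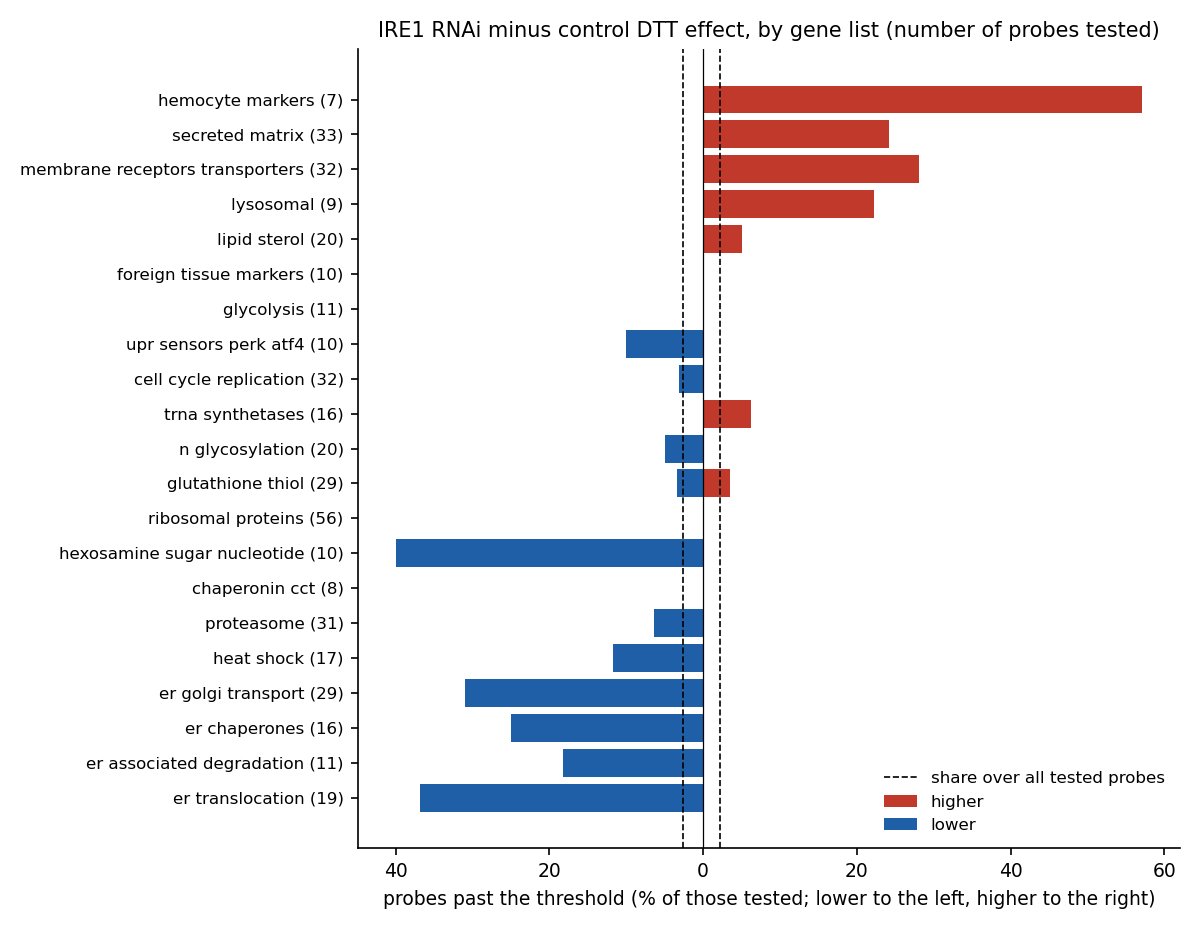
Share of each list's tested probes that were higher (red, to the right) or lower (blue, to the left) on the arrays labelled IRE1 RNAi, in percent, with the number tested in brackets; dashed lines mark the shares over all 5594 probes. Secreted, membrane and lysosomal lists hold no lower calls, and lists of the ER folding, translocation and transport machinery hold no higher ones; the hemocyte list shares members with the others.

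Part of the ER folding machinery had a lower DTT effect on the arrays labelled IRE1 RNAi. These were 4 of 16 probes, against 2.63% over all probes. Of the 16 probes for ER chaperones and folding enzymes, DTT raised 9 and lowered 4 in control cells, while 4 rose and 5 fell on the labelled arrays. Over all probes 17.8% rose and 17.5% fell in control cells, and 14% and 19.5% on the labelled arrays. All 4 that passed in the difference were lower, and the median of the list was -0.86. Ero1L encodes the oxidase that supplies disulphide bonds to the ER. It read -1.83, -1.86 and -1.98 in control cells without DTT and 1.43, 1.51 and 1.53 with DTT. The labelled arrays read -1.31, -1.58 and -2.14 without DTT and -0.15, -0.48 and 0.47 with DTT. With DTT the groups did not overlap, and the rise was 10.4-fold in control cells against 3.08-fold (difference -1.76 ± 0.43, adjusted p = 0.0225).

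Gp93, an ER chaperone of the Hsp90 family, rose in control cells and not on the labelled arrays. It read -0.27, 0.48 and 0.56 and then 1.58, 1.27 and 1.52 in control cells, against 0.03, -0.08 and 0.28 and then -0.90, -0.98 and 0.45 on the arrays labelled IRE1 RNAi. Replicate C of the latter stood apart from A and B, and the difference by letter was -2.78, -1.69 and -0.79. It was -1.75 ± 0.37 overall (adjusted p = 0.00891). The co-chaperone gene P58IPK differed by -1.21 ± 0.31 and the disulphide isomerase gene CaBP1 changed by 1.05 in control cells and 0.05 on the labelled arrays (adjusted p = 0.0239).

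The BiP gene Hsc70-3, the main Hsp70 chaperone of the ER, read -1.66, -1.36 and -1.51 and then 1.21, 1.36 and 1.30 in control cells, and -1.63, -2.67 and -1.94 and then -0.22, -1.14 and 0.18 on the labelled arrays. It rose in both arms, 6.96-fold and 3.22-fold. All 3 labelled arrays with DTT were below the control arrays with DTT, but the difference of -1.11 ± 0.52 did not pass (adjusted p = 0.242). Its exchange factor gene Sil1 changed by 3.31 and 2.11 (adjusted p = 0.0573). The lectin Calr and the isomerases Pdi and ERp60 had differences of -0.73 ± 0.27, -1.03 ± 0.33 and -0.53 ± 0.31, none past the threshold. The calls of Ero1L, P58IPK and CaBP1 were lost without any of 5, 7 and 5 arrays. Replicate B of control with DTT was among them for each gene. The list's count fell to 1 without that array, without replicate A of IRE1 RNAi without DTT or without replicate B of IRE1 RNAi with DTT. It fell to 2 without the sparse array or without any of replicates A and C of untreated control cells and C of control with DTT. It rose to 7 without replicate C of IRE1 RNAi with DTT.

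Genes of protein entry into the ER were among the lower ones, 7 of 19, against 2.63% over all probes. Their median difference was -0.90, though most did not rise with DTT in control cells, where 2 rose and 3 fell. On the arrays labelled IRE1 RNAi 9 fell and none rose. The shares over all probes were 17.8% up and 17.5% down in control cells, and 14% and 19.5% on the labelled arrays. Trp1 encodes the Sec62 subunit of the post-translational translocon. It read -0.52, -0.85 and -0.72 and then 1.17, 0.98 and 1.82 in control cells. The labelled arrays read -0.57, -1.09 and -0.95 without DTT and -0.83, -1.14 and 0.13 with DTT. The rise was 4.06-fold in control cells, and the groups with DTT did not overlap (difference -1.76 ± 0.38, adjusted p = 0.0106).

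TRAM, a translocon-associated membrane protein gene, changed by -0.05 in control cells and fell by 1.80 on the labelled arrays (log2), a difference of -1.76 ± 0.39 (adjusted p = 0.0133) with 1 value missing. The signal recognition particle gene Srp68 differed by -1.45 ± 0.26 (adjusted p = 0.00366). The channel subunit gene Sec61beta differed by -1.33 ± 0.31, the signal peptidase genes Spase25 and Spase22-23 by -1.31 ± 0.31 and -1.12 ± 0.29, and the receptor gene SrpRalpha by -0.91 ± 0.26. Sec61alpha, which forms the channel itself, changed alike in both arms, by -1.26 and -1.44. Calls in the list were 4 without replicate A or C of untreated control cells and 3 without replicate C of control with DTT, A of IRE1 RNAi without DTT or B of IRE1 RNAi with DTT. The calls of Sec61beta and Spase25 were lost without each of the last 3 arrays, those of Spase22-23 and SrpRalpha without these and others, and quantile normalization left 4 calls in the list.

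The list of ER-Golgi transport, which includes the vesicle coats, held the most lower calls by count. Their share was 31.0%, against 36.8% for protein entry into the ER, 40% for sugar nucleotide enzymes and 2.63% over all probes. Of 29 probes for ER-Golgi transport, 16 rose with DTT in control cells and 3 on the arrays labelled IRE1 RNAi. Over all probes 17.8% and 14% rose. In the difference 9 of the list were lower (median -0.78). They included 6 subunits of the COPI coat, which carries proteins back to the ER. betaCOP read -0.24, -0.06 and 0.45 and then 1.28, 1.37 and 1.81 in control cells, against -0.31, 0.13 and 0.57 and then -0.77, -0.11 and 0.59 on the labelled arrays. It rose 2.71-fold in control cells and had a DTT effect of -0.23 on the labelled arrays, a difference of -1.66 ± 0.26 (adjusted p = 0.00124). deltaCOP, epsilonCOP, zetaCOP, gammaCOP and beta'COP differed by -1.41 ± 0.23, -1.42 ± 0.28, -1.37 ± 0.34, -1.17 ± 0.30 and -1.14 ± 0.30. The COPII coat genes Sec23 and Sec13, for transport out of the ER, differed by -1.38 ± 0.38 and -1.18 ± 0.27. The calls of zetaCOP, gammaCOP, beta'COP and Sec23 were each lost without at least 5 arrays, and the list kept 6 to 13 calls when 1 array was left out. The small GTPase genes Rab1 (0.09 ± 0.31), Arf1 (0.13 ± 0.43) and Sar1 (0.81 ± 0.31) did not pass.

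The lowest difference among called probes was that of Cog6. It encodes a subunit of the COG complex, which tethers vesicles at the Golgi. Cog6 read -0.98, -0.92 and -0.54 in control cells without DTT and 1.52, 1.63 and 1.78 with DTT. The labelled arrays read -0.21, -0.66 and -0.88 without DTT and -0.30, -0.58 and 0.41 with DTT. Control cells with DTT stood above every labelled array, after a rise of 5.49-fold, and the difference was -2.03 ± 0.31 (adjusted p = 0.00124). Grasp65, a Golgi stacking protein gene, read -0.24, -0.20 and 0.02 and then 1.25, 0.95 and 1.48 in control cells, against -0.22, 0.04 and 0.40 and then -0.93, -0.59 and 0.34. It rose 2.58-fold in control cells, with a difference of -1.83 ± 0.28 (adjusted p = 0.00109). The GTPase gene Arf4 differed by -1.80 ± 0.32 and EMC2A, a subunit gene of the ER membrane protein complex, by -1.85 ± 0.43, a call lost without replicate B or C of control with DTT, A of IRE1 RNAi without DTT or B with DTT. Outside these roles the lowest differences were those of the carboxylesterase gene alpha-Est1 (-1.95 ± 0.33), CG14411 (-1.94 ± 0.30), CG12288 (-1.83 ± 0.27), the adhesion adaptor gene p130CAS (-1.76 ± 0.36), tzn (-1.69 ± 0.33) and the alkaline phosphatase gene Alp9 (-1.69 ± 0.35).

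Enzymes that supply sugar nucleotides for glycosylation were lower in 4 of 10 cases, against 2.63% over all probes. Pmm2 and Gmd kept the call when any single array was left out. Pmm2 encodes phosphomannomutase, which makes mannose-1-phosphate. It read -0.32, -0.18 and 0.01 in control cells without DTT and 1.84, 1.40 and 1.91 with DTT, while all 6 labelled arrays lay between -0.44 and 0.72. The rise was 3.68-fold in control cells, and the difference was -1.94 ± 0.31 (adjusted p = 0.00124). Gmd, the GDP-mannose dehydratase gene, differed by -1.40 ± 0.29 (adjusted p = 0.00826). Gfat2, the first enzyme of the hexosamine pathway, differed by -1.66 ± 0.39 (adjusted p = 0.0164), and lost the call without the sparse array, without replicate A of control with DTT or without replicate B of IRE1 RNAi with DTT. Of 20 probes for N-glycosylation in the ER only Dad1, an oligosaccharyltransferase subunit gene, was lower (-1.04 ± 0.27, adjusted p = 0.0333), a call lost without any of 7 arrays, among them the sparse array and both replicates B with DTT. The median of that list was -0.12.

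For ER-associated degradation, 2 of 11 probes were lower, against 2.63% over all probes, and the median difference was -0.87. Der-2, a derlin of the retrotranslocation machinery, changed by 1.19 in control cells and -0.07 on the labelled arrays (difference -1.26 ± 0.25, adjusted p = 0.00628). Herp, a membrane protein of the ubiquitin ligase complex, rose 4.07-fold and 1.74-fold (-1.23 ± 0.29, adjusted p = 0.017). Its call was lost without replicate C of untreated control cells, B of control with DTT or A or B of IRE1 RNAi with DTT. The Hrd3 gene of the same complex differed by -0.97 ± 0.33 without passing.

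In the remaining lists few probes passed. Lower calls made up 10% of the probes for sensors and the PERK arm and 6.45% of the proteasome probes. They were 11.8% for heat shock and 3.13% for the cell cycle, against 2.63% over all probes. Of 10 probes for sensors and the PERK arm, eIF2alpha, the translation factor that PERK phosphorylates, was lower (-1.04 ± 0.23, adjusted p = 0.0135). Thor, the 4E-BP translation inhibitor gene, had a larger rise on the labelled arrays that did not pass (3.81 against 2.61 in control cells, adjusted p = 0.0696). Of 31 proteasome probes 2 were lower, of Prosalpha6 and Rpn12, and each call was lost without any of 10 arrays and under quantile normalization. A second Rpn12 probe did not pass (-0.59 ± 0.25). The median of the list was -0.59, and 16 of its probes fell in control cells and 27 on the labelled arrays. The shares that fell over all probes, for this and the cell cycle list below, were 17.5% and 19.5%. Of 17 heat shock probes the mitochondrial chaperone gene Trap1 and Hsc70-1 were lower, both without a value on the sparse array. Trap1 lost its call without any of 4 arrays and Hsc70-1 without replicate A of untreated control cells or C of control with DTT. The cell cycle list, where 26 of 32 fell in control cells and 25 on the labelled arrays, had a median difference of -0.05 and 1 lower call, the ribonucleotide reductase gene RnrS (-1.30 ± 0.34, without a value on the sparse array), lost without any of 5 arrays. None of 56 ribosomal protein, 11 glycolysis, 8 chaperonin and 10 foreign tissue probes passed in limma, with medians of -0.46, 0.06, -0.49 and 0.09.

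Without DTT the arms could not be told apart gene by gene. In limma none of the 5594 probes (0%) passed in the comparison of IRE1 RNAi with control arrays, the smallest adjusted p was 0.198, and 573 probes had an unadjusted p under 0.05. Ire1 alone passed without centring (difference 2.11) and without replicate C of IRE1 RNAi without DTT (2.82). The median difference without DTT was 0.02 for the 125 higher probes and 0.25 for the 147 lower ones, against 0.06 over all probes. With DTT these medians were 1.44 and -1.01, so most of the difference of the higher set lay in the cultures with DTT. Between the arms with DTT 617 probes (11%) passed, 335 higher (5.99%) and 282 lower (5.04%) on the labelled arrays.

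The DTT effect on the arrays labelled IRE1 RNAi was set against that under XBP-1 RNAi in a direct test. With XBP-1 RNAi itself 1301 of 5417 probes (24%) rose with DTT and 1192 (22%) fell, 46% in all. This test shares the labelled arrays with the comparison above, so its values are given beside it and not as separate support. Of 5417 probes, 46 (0.849%) were higher on the arrays labelled IRE1 RNAi and 1 (0.0185%), the muscle protein gene zormin, was lower, with a second zormin probe not past the threshold. The count of 46 became 23 and 22 without replicate B of XBP-1 RNAi without and with DTT, and 27 and 28 without replicates B and C of IRE1 RNAi with DTT. It was 12 without centring.

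Several genes with large falls in control cells also fell under XBP-1 RNAi. SPARC read 1.50, 1.54 and 2.17 under XBP-1 RNAi without DTT and -0.97, -1.85 and -2.13 with DTT, so that both control and XBP-1 RNAi arrays with DTT lay below all labelled arrays. The difference between the RNAi arms was 2.63 ± 0.39 (adjusted p = 0.00191). For CtsL1, which lacked a value on an XBP-1 RNAi array, it was 1.86 ± 0.32. Hydr2 differed by 2.14 ± 0.29 and Tsp42Ee by 2.19 ± 0.41, and all of these genes were past the threshold. Tsp42Ee was no longer past it without replicate B of XBP-1 RNAi without DTT. Indy fell by 1.50 under XBP-1 RNAi, less than the 3.18 of control cells, and the arms differed by 1.82 ± 0.35 (adjusted p = 0.0157). For vkg and mys the differences of 1.02 ± 0.35 and 0.90 ± 0.30 did not pass, with 95% intervals of 0.28 to 1.76 and 0.27 to 1.54.

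NTPase, Tsp42Ea, Gclc and AsnRS, which rose on the arrays labelled IRE1 RNAi, had higher DTT effects there than under XBP-1 RNAi, by 2.33 ± 0.29, 1.59 ± 0.35, 1.42 ± 0.29 and 1.52 ± 0.31. NTPase kept its call when any single array was left out, and the other 3 lost theirs without at least 3 arrays each. For path and ImpL2 the differences of 1.23 ± 0.40 and 0.72 ± 0.40 did not pass, and the 95% intervals were 0.39 to 2.06 and -0.12 to 1.57.

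Cog6 and Pmm2, among the lower genes, had close DTT effects in both RNAi arms. The values of betaCOP, Ero1L, Gp93 and Trp1 were lower under XBP-1 RNAi, without passing the test. The DTT effect of Cog6 was 0.43 on the arrays labelled IRE1 RNAi and 0.41 under XBP-1 RNAi, a difference of 0.02 with a 95% interval of -0.69 to 0.72. Those of Pmm2 were -0.06 and -0.16 (interval of the difference -0.56 to 0.75) and those of betaCOP -0.23 and -0.76 (-0.06 to 1.12). Ero1L stood at 1.62 and 0.79 (-0.07 to 1.73), Gp93 at -0.55 and -1.21 (-0.11 to 1.43) and Trp1 at 0.26 and -0.48 (-0.06 to 1.54). None of these differences passed, which does not show that the arms act alike, and for the last 4 the intervals lay mostly on the side of a lower value under XBP-1 RNAi.

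In the ER chaperone list 6 of 16 probes were higher on the arrays labelled IRE1 RNAi than under XBP-1 RNAi, against 0.849% over all probes. All 6 calls were lost without centring, without the letter as a block and with unmoderated variances. ERp60 changed by -0.61 in control cells, -1.13 on the labelled arrays and -2.80 under XBP-1 RNAi, and Pdi by -0.33, -1.35 and -2.77. Calr changed by 0.23, -0.50 and -1.66, and ERp44, a thioredoxin-like ER protein gene, by -0.55, -0.42 and -1.61. Both probes of shv, an ER DnaJ gene, rose in control cells (1.04 and 1.09) and changed by -1.02 and -0.72 under XBP-1 RNAi. In these values each gene had its lowest DTT effect under XBP-1 RNAi. The calls of ERp60 and of the second shv probe remained when any single array was left out, while those of Pdi, Calr, ERp44 and the first shv probe were lost without at least 5 arrays each.

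**Figure D4:**
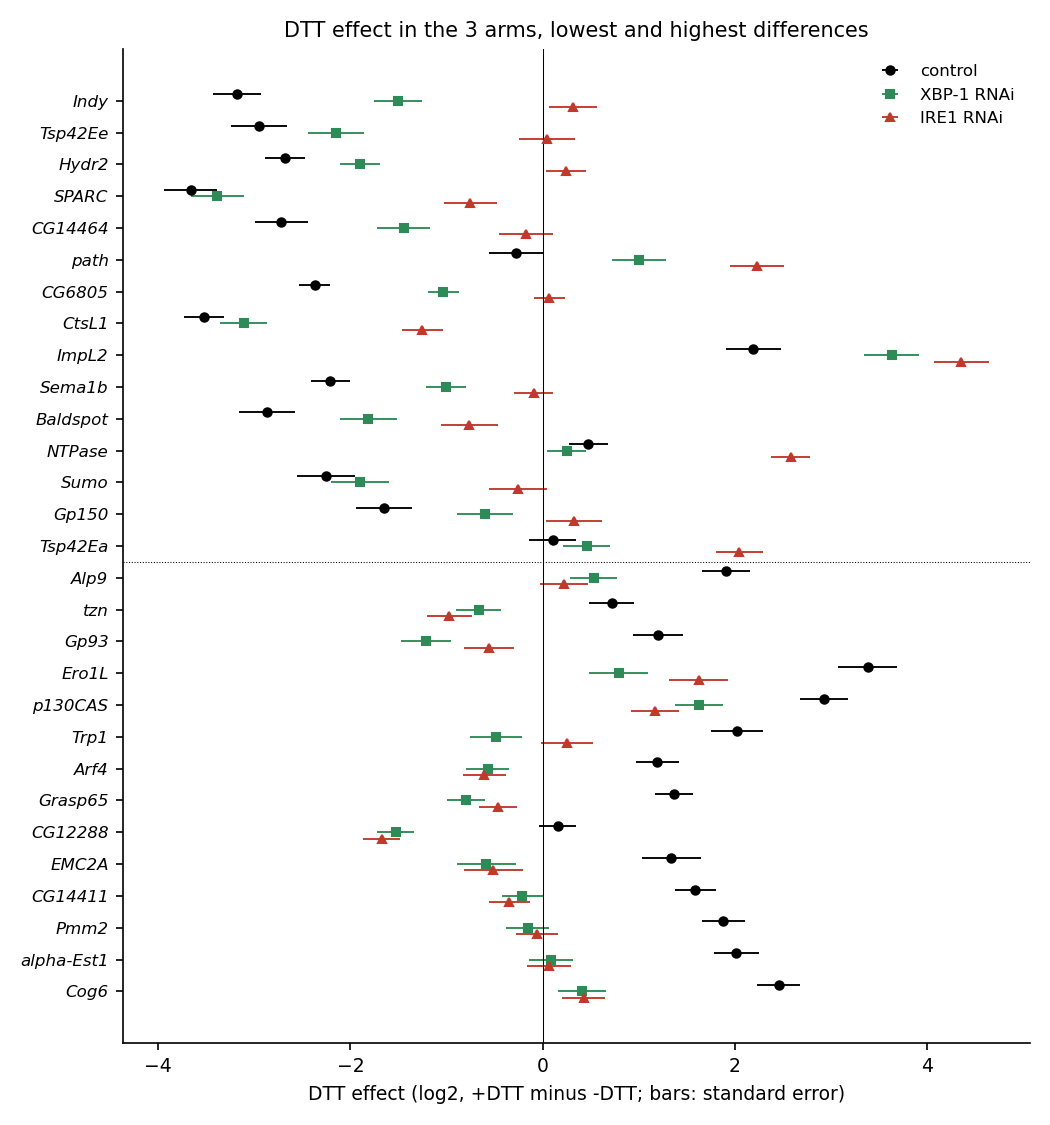
DTT effect (log2, +DTT minus -DTT) in control cells (black circles), under XBP-1 RNAi (green squares) and on the arrays labelled IRE1 RNAi (red triangles) for the 15 highest genes of the comparison and 14 of the 15 lowest; bars are standard errors from limma. Above the dotted line the triangles lie to the right of the circles, and below it squares and triangles both lie to the left of the circles.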

How the data were processed

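RNA of S2 cells was measured on 18 two-colour spotted arrays. The authors deposited 1 log ratio for each probe and array, read here as log2. NOMAD was their normalization system, per the labels, and dim, inconsistent or defective spots had been taken out. Scaling between arrays, log base and numerator are not given in the sources used here. Array medians ran from -0.81 to 0.24. Of 7257 probes, 6683 were named by reading the probe number as a CG locus tag of Release 6 and 457 as a synonym. Another 107 matched several genes and 10 none.

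Arrays were centred on their median and fitted with limma 3.58.1 (R 4.3.3), with 6 group means and the letter as a block, for probes with at least 2 values in each of the 4 groups. Variances were moderated by limma's empirical Bayes method, and p-values are 2-sided and Benjamini-Hochberg adjusted over all tested probes. Letters paired the samples: deviations from group means correlated in all 18 same-letter pairs (0.24 to 0.69). Arrays of a group correlated with r of 0.66 to 0.86, so none was counted as a duplicate. The number of arrays and removed spots limit the precision, and signal over background was not used here.

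Genes were named by rule: the 15 highest and 15 lowest called probes with 12 values and the same sign in each letter, up to 4 called members per list, and Ire1, Xbp1, Hsc70-3, SPARC, Indy and Hydr2. A gene among the 15 lowest is not reported here. Further list members are given to fill out a list and were chosen after their values were seen. The comparison, gene lists and tests were chosen with earlier results of these data known. The fit was tested on simulated data. Alternatives were no centring, quantile normalization, no block, 12 arrays, unmoderated or robust variances, complete probes and leaving out each array.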

Additional observations from a re-analysis of the deposited data

Results flagged for a closer look

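The results below are those in which a test of the difference between arms passed. The DTT effect on the arrays labelled IRE1 RNAi differed from that of control cells for 125 higher and 147 lower probes. Between the arrays labelled IRE1 RNAi and XBP-1 RNAi it differed for 46 higher probes and 1 lower probe. Named genes past the threshold in the latter test, with the DTT effect on the arrays labelled IRE1 RNAi minus that under XBP-1 RNAi on the log2 scale, were SPARC (2.63), NTPase (2.33), Tsp42Ee (2.19), Hydr2 (2.14), Agpat2 (2.05), CtsL1 (1.86), Indy (1.82), Tsp42Ea (1.59), Idgf2 (1.53), AsnRS (1.52), Gclc (1.42) and CG6805 (1.10). All 12 were also higher than in control cells, but the naming rule mostly took genes past that test, and the tests share the arrays labelled IRE1 RNAi. Other probes of the 46 did not pass against control in limma. Among them were Catsup (difference 0.51, adjusted p = 0.334) and ERp60 (-0.53, adjusted p = 0.365). When single arrays were left out, of 12, Idgf2 lost this call in 10 cases, Agpat2 and Tsp42Ea in 8, Gclc in 6, CG6805 in 5, AsnRS in 3 and Tsp42Ee in 1. Without centring CtsL1, Indy, Tsp42Ea, Idgf2, AsnRS, Gclc and CG6805 lost it.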

How the results depend on the processing

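Of the 61 called genes named by rule, none changed sign under any of the alternatives tried. These genes were chosen for passing the threshold, and those named by size also for the same sign in each letter. A change of sign was therefore unlikely beforehand for these genes. Their calls remained for 44 without centring, 54 with quantile normalization, 55 in the fit of 12 arrays, 34 with unmoderated variances, 61 with robust ones, and 54 of 54 with complete probes. With no replicate block for the letter 27 kept the call, and 36 probes were higher and 28 lower. Against 125 higher and 147 lower, the counts were 30 and 123 without centring, 124 and 145 with quantile normalization, and 53 and 82 with unmoderated variances. Leaving out 1 array gave 65 to 176 higher and 73 to 195 lower probes, of 3628 to 5533 tested. The DTT effect passed for 1136 probes in control cells without centring, for 1260 with complete probes (3047 tested) and for 1366 to 2009 with 1 array left out; the range on the arrays labelled IRE1 RNAi was 1222 to 1828. Between the arms without DTT 1 probe (Ire1) passed without centring, and 0 to 1 with 1 array left out. For IRE1 RNAi against XBP-1 RNAi, 12 probes were higher without centring, 8 with no replicate block, 10 with unmoderated variances and 22 to 38 with 1 array left out. The 1 lower probe was lost (0) with quantile normalization, without the block, with 12 arrays, unmoderated variances or complete probes, and 0 to 1 were lower with 1 array left out. The sign turned for 3 probes that passed no test. Ire1 read -0.07 without centring, -0.28 with quantile normalization and -0.37 to 0.78 with 1 array left out. The first Xbp1 probe read -0.013 without centring. The second read -0.34 without centring, -0.027 with quantile normalization and -0.034 to 0.22 with 1 array left out. The causes were not tested.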

Other observations

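The genes given here lie outside the lists and were chosen after their values were seen. They are single genes and stand for no group. Ugt302C1, a UDP-glycosyltransferase gene with 11 of 12 values, changed by 0.79 in control cells, 3.92 on the labelled arrays and 1.25 under XBP-1 RNAi, a difference from control of 3.13. The cytochrome P450 genes Cyp6a20, Cyp6a9 and Cyp6d4 differed by 2.47, 2.41 and 1.22. Their DTT effects in control cells were 4.15, 0.18 and 1.41.

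Secreted and surface proteins outside the lists included the matrix metalloprotease gene Mmp1, which changed by -0.68 in control cells and 1.17 on the labelled arrays, and the syndecan gene Sdc, at -1.23 and 0.42. The activin-like ligand gene daw rose by 2.62 and 4.22. Among the lower genes, both probes of fbp, the fructose bisphosphatase gene, rose in control cells (1.76 and 1.53) and changed by 0.20 and 0.06 on the labelled arrays. ArfGAP3 and Rint1, which act in transport at the Golgi, had differences of -1.15 and -1.65.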
